A study of Homo sapiens with 6 samples.

Results

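Processed pseudogenes are copies of spliced messenger RNAs that were reverse transcribed and inserted elsewhere in the genome, so they usually lack the introns and the promoter of their parent gene. Highly transcribed housekeeping genes, above all those of ribosomal proteins, have left many such copies in the human genome. Most are silent, and the ones that are transcribed usually use a promoter near the place of insertion or lie inside another transcript. A read from such a copy can be told from a read of its parent only where the sequences differ or where the read reaches flanking sequence.

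The pseudogenes described here were chosen from the count table by 2 conditions, a gene type ending in processed_pseudogene (unprocessed types left out) and at least 50 raw reads in each of the 6 libraries. Of 2745 such rows among 30327 rows in the table, 82 met the read minimum, while 2370 had fewer than 10 reads in every library. By gene type, 61 were processed pseudogenes and 21 transcribed processed pseudogenes. The read count therefore chose the members, and their levels are given as a description. The gene type was taken as annotated, without a condition on exon structure. A single exon block was annotated for 64 of the 82. Some members had many, with 24 in GTF2IP4, 15 in SMPD4BP, 13 in DUXAP10, 12 in DUXAP9 and 6 in PLEKHA8P1. Whether members with several exon blocks arose from spliced messenger RNAs was not tested. The symbols name a parent gene for 65 of the 82, and these 65 pairs go back to 43 parents. Just inside the minimum lay RP11-34P13.15, with 51 reads in its lowest library, and RPL13AP7 with 52. Just outside were PRELID1P6 with 49 and RPL39P3 with 48. Requiring the minimum in every library kept out 3 rows that reached it in all si_GRB2 libraries alone and 5 that reached it in all si_NC libraries alone.

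The libraries came from SK-BR-3, an established HER2-overexpressing breast cancer line. In 3 of them (si_NC) the cells had received a nontargeting control siRNA, and in 3 (si_GRB2) an siRNA against GRB2, the adaptor protein that links receptor tyrosine kinases to Ras. The libraries were strand-specific, paired-end and made from poly(A) RNA. The GEO titles call the treated libraries GRB2 overexpression and their descriptions si_GRB2, so GRB2 was examined first. In CPM, which are counts scaled to library size with TMM normalization, GRB2 stood at 123.9, 129.5 and 125.7 with si_NC and at 27.8, 28.1 and 29.6 in the libraries labelled si_GRB2. The log2 fold change was −2.15 with an SE of 0.04 (edgeR, adjusted p = 3.87e-15). It was lower in every library labelled si_GRB2, against the word overexpression in the titles. Each library had between 24810378 and 28532480 reads counted on genes. ERBB2, GRB7, EPCAM, KRT8, KRT18 and KRT19 were all high, with at least 3382 reads in every library, whereas the epithelial cadherin CDH1 had 1 to 3 reads. PTPRC and PECAM1 (leukocytes, endothelium) had 0 or 1 read, VIM and COL1A2 at most 9, ESR1 24 to 38 and COL1A1 104 to 149. Nothing in the labels says that the 3 libraries of a group were separate cultures, so p-values measure the spread between these libraries, which may be technical.

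How like the copies were to their parents is shown by aligned stretches of the coding sequence, written 5′ to 3′ from GENCODE 44 on GRCh38. Capitals mark the bases that differ within a pair. Where a pair differs at all, only stretches with at least 1 difference were considered. Among these, the one with a mismatch rate closest to that of the whole alignment was taken. PPIAP22 therefore shows a higher rate here than over its whole length. HSPD1P6, the member with the largest change, and its parent HSPD1 differ at 6 of 90 bases. In HSPD1P6 (chr3:36768701-36768790, minus strand) the last capital opens an in-frame stop codon at codon 37 of HSPD1 (chr2:197498720-197498809, minus strand).
HSPD1P6: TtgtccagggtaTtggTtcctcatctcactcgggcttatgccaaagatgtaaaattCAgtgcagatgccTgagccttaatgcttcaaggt
HSPD1: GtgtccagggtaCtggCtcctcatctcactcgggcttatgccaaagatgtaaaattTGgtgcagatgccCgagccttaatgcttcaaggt

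PPIAP22, the member with the largest fall, differs from PPIA at 1 base of the stretch shown. It lies at chr21:18857968-18858057 on the plus strand and PPIA at chr7:44799702-44799791 on the plus strand.
PPIAP22: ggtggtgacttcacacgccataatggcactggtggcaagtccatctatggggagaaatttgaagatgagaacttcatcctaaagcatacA
PPIA: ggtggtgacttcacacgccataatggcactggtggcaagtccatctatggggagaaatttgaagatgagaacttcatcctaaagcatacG

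RPS2P5, which took the most reads, differs from RPS2 at 1 base of its stretch. RPS2P5 lies at chr12:118246116-118246205 on the plus strand and RPS2 at chr16:1964504-1964593 on the minus strand.
RPS2P5: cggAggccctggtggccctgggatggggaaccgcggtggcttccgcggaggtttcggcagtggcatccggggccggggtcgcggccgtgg
RPS2: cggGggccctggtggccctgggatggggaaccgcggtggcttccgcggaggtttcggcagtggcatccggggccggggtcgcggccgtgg

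The annotated RPL41P5 (chr12:93083598-93083675, minus strand) is only 78 bases long, is identical to the RPL41 coding sequence in every base, and is shown as the extreme case.
RPL41P5: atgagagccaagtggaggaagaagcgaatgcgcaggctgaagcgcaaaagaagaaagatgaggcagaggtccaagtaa

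Likeness was high across the pairs. Identity was taken over the best stretch aligned to the parent transcript, for the 64 pairs whose pseudogene is in GENCODE 44 (RPSAP58 is the member not found there). It ran from 84.4% to 100% with a median of 98.8%, and was at least 97% in 54 pairs. The stretch covered only part of some members, such as 37.2% of TPM3P9, 49.2% of PDIA3P1 and 67.3% of PLEKHA8P1. In 50 pairs the longest stretch without a difference was 150 bases or more, the length of a read. RPS28P7, RPL36AP37, RPL21P16 and RPL41P5 were identical to their parents over their whole annotated length. The least similar were UBE2CP5 (84.4%), OAZ1P1 (85.9%), KRT8P12 (86.1%) and MSL3P1 (90.4%), and HSPD1P6 (93.5%) had 98 mismatches and no identical run longer than 130 bases. Because the deposited counts hold uniquely mapped reads, the count of a near-identical copy depends on which reads could be placed, and all values of such copies are uncertain in that sense. The reading frame of the parent was intact in many copies. It could be followed from the start codon in 50 pairs, was open over all codons of the parent in 34, and met a stop before the midpoint of the parent's frame in 11. RPL9P9, PPIAP22 and EEF1A1P5 kept the full frame of 192, 165 and 462 codons, whereas the frame of KRT8P12 ended after 78 of 483 codons and that of RPS2P55 after 57 of 293.

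The members were a small share of the RNA. They took 0.137%, 0.137% and 0.139% of the counted reads in the si_NC libraries and 0.138%, 0.136% and 0.14% in the si_GRB2 libraries, and the groups overlapped (exact permutation test, two-sided p = 1). RPS2P5 alone held 33.4% of the members' reads, and the 6 members with the most reads 57.0%. In the deposited FPKM, which scale reads by gene length, member levels ran from 0.61 (ZNF37BP) to 427 (RPS2P5) with a median of 6.6. After RPS2P5 came RPS28P7 with a mean of 205 FPKM, RPL9P9 with 127, PPIAP22 with 56.3, RPL23AP42 with 50.9, EEF1A1P5 with 47.0, RPL36AP37 with 45.4, RPL41P5 with 43.6, RPSAP47 with 42.8 and RPS27P3 with 30.2. All of these except PPIAP22 and EEF1A1P5 are copies of ribosomal protein genes. RPL41P5 is annotated with 78 bases and RPS28P7 with 210, both shorter than a read pair, so scaling by length is uncertain for them.

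Relative to the parent, the levels were mostly low. In 46 of the 65 pairs the pseudogene had fewer than 1% of the reads of its parent, the median was 0.492%, and 7 pairs were above 10%. RPS2P5 had 15.9% of the reads of RPS2, a gene of the small ribosomal subunit, and RPL9P9 18.3% of those of RPL9. MSL3P1 had 76.5% of the reads of MSL3, a subunit of a histone acetyltransferase complex, and GTF2IP4 40.1% of those of the transcription factor gene GTF2I. Per length, 5 members exceeded their parent. The mean FPKM was 3.98 for MSL3P1 against 1.21 for MSL3, 205 for RPS28P7 against 72.3 for RPS28, 127 for RPL9P9 against 100.7 for RPL9, 4.59 for RPL17P6 against 3.62 for RPL17 and 2.30 for GTF2IP4 against 1.83 for GTF2I. RPL17 had only 1733 reads over the 6 libraries, while the read-through gene RPL17-C18orf32 had 15907 to 18374 in each, so the ratio of this pair is uncertain. RPS28P7, RPL9P9, GTF2IP4 and RPL17P6 are 99.3% to 100% identical to their parents where aligned. For them the counts of copy and parent both depend on which reads could be placed uniquely. MSL3P1 shares 1864 exonic bases on the same strand with another annotated gene, whose part in the count was not tested.

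**Figure D1:**
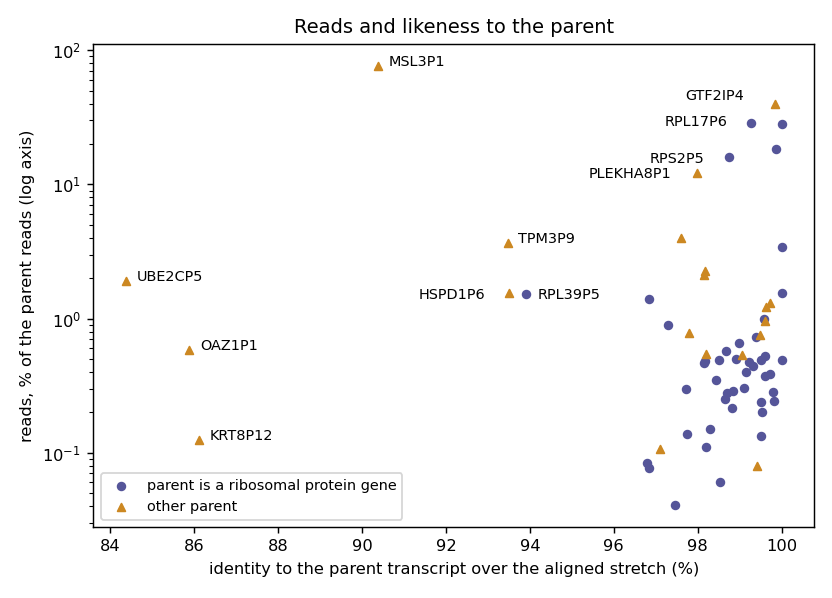
Reads of each pseudogene as a percentage of the reads of its parent, over the 6 libraries together (y axis, log scale), against the identity of the aligned stretch to the parent transcript in percent (x axis), for 64 pairs. Circles are copies of ribosomal protein genes and triangles are other copies, and MSL3P1 stands highest at 76.5% with an identity of 90.4%.

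All 82 members had enough reads to be tested in the fit of si_GRB2 against si_NC over 15801 genes. With an adjusted p under 0.05 (edgeR), 14 members changed, 5 higher and 9 lower in si_GRB2. This is 17.1% of the members, against 30.6% of all tested genes (15.2% higher and 15.5% lower). The members had fewer reads than most genes, with a median of 1104.5 reads over the 6 libraries against 2584 for all tested genes, and a median SE of 0.11 against 0.07 on the log2 scale. HSPD1P6 was the 1 DEG (fold change above 1.5 in either direction and adjusted p under 0.01), where 2.52% of all tested genes were DEGs, 0.829% higher and 1.69% lower. The median log2 fold change was −0.04 over the members and 0.0019 over all tested genes, and 54 members had a value below 0 and 28 above. With limma on log2 FPKM, 41 of the 82 were below 0 and the member median was 0.00019 (pseudocount 1) or 0.0011 (pseudocount 0.1). In those fits the median over all tested genes was also higher, at 0.024 and 0.043. A count of values below 0 therefore does not mean the same in both kinds of fit. CPM did not overlap between the groups in 24 members (29.3%), as in 42.3% of all tested genes. Among unprocessed pseudogenes with the same read minimum, 21 of 116 had an adjusted p under 0.05, 9 higher and 12 lower, and their median log2 fold change was −0.04. The 14 calls depended on tool and library more than the DEG did. DESeq2 made 7 calls, limma on log2 FPKM 5, and leaving out 1 library gave as few as 7 (without si_GRB2 replicate 3) or 8 (without si_NC replicate 2). Calls over all tested genes dropped as well, from 4838 to 3884 with DESeq2 and to 2633 (pseudocount 1) or 2663 (pseudocount 0.1) with limma. They were 4067 without si_GRB2 replicate 3 and 3895 without si_NC replicate 2. HSPD1P6, PPIAP22, TPM3P9 and RPL39P5 were called in every one of the 13 other fits.

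**Figure D2:**
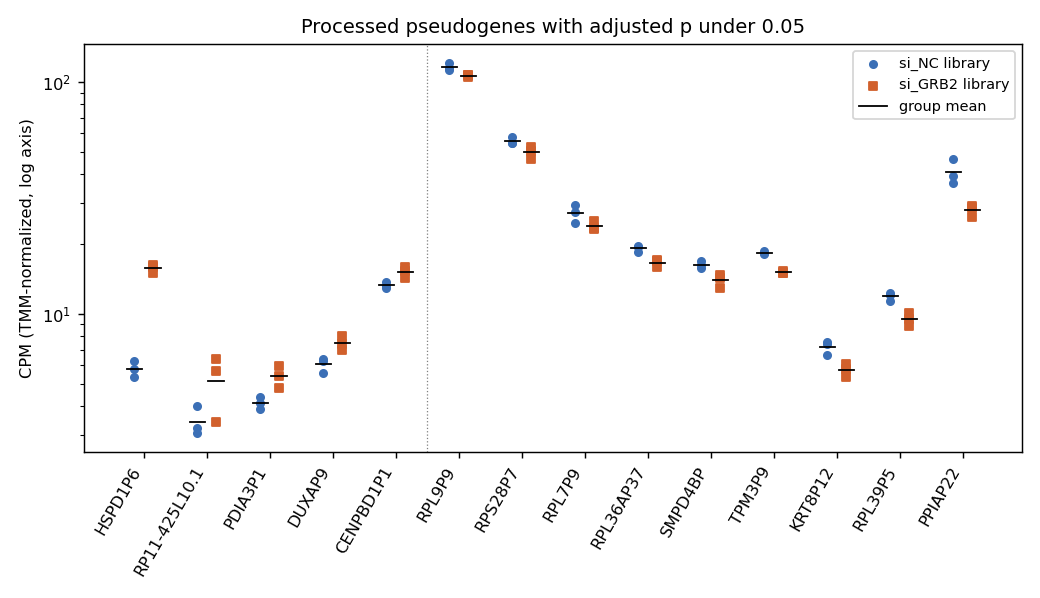
CPM (log axis) of the 14 members with an adjusted p under 0.05 in each of the 3 si_NC libraries (circles) and 3 si_GRB2 libraries (squares), with lines at the group means and a dotted line between the 5 higher and the 9 lower members. HSPD1P6 is the member with the widest gap, 5.35 to 6.27 CPM against 14.98 to 16.2 CPM.

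Among copies of chaperone genes, HSPD1P6 rose and PPIAP22 fell. HSPD1P6 (ENSG00000230067.3) is a transcribed copy of HSPD1, which encodes the mitochondrial chaperonin HSP60. Its 2 exon blocks span chr3:36767117-36784167 (minus strand), and it overlaps no other annotated gene. The 3 si_NC libraries held 150, 148 and 176 reads (5.35, 5.81 and 6.27 CPM) and the 3 si_GRB2 libraries 377, 438 and 411 reads (14.98, 15.95 and 16.2 CPM). The groups were far apart, and within each the libraries lay close together. From 5.81 ± 0.463 to 15.7 ± 0.658 CPM (mean ± SD, n = 3 each) the rise was 2.71-fold (log2 fold change 1.44, SE 0.09, adjusted p = 4.28e-09, edgeR). Leaving out any 1 library kept the log2 fold change between 1.37 and 1.49.

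Its parent showed no rise of that size. HSPD1 stood at 679 ± 23.1 CPM with si_NC and at 709 ± 12.5 CPM with si_GRB2 (SD, n = 3 each), and its log2 fold change was 0.06 (SE 0.03, adjusted p = 0.0974, edgeR). HSPD1P6 went from 0.786%, 0.829% and 0.959% of the reads of HSPD1 to 2.16%, 2.23% and 2.27%, without overlap between the groups (two-sided exact permutation p = 0.1, the lowest possible with 3 against 3). The log2 fold change of the pseudogene exceeded that of the parent by 1.37 (SE 0.09), the largest excess relative to its error among the 65 pairs. The count table holds 4 further processed pseudogenes of HSPD1, and they had few reads. HSPD1P1 had 11, 12 and 7 reads in si_NC and 14, 12 and 10 in si_GRB2 (log2 fold change 0.32, SE 0.37, adjusted p = 0.575, edgeR), and HSPD1P4 had 8, 7 and 15 against 14, 10 and 7. Of the neighbours on chromosome 3, DCLK3, a kinase gene, rose on few reads, with 10, 10 and 9 in si_NC and 27, 43 and 16 in si_GRB2 (log2 fold change 1.61, SE 0.36, adjusted p = 0.00253, edgeR). TRANK1 had 31 to 49 reads per library and a log2 fold change of −0.16 (SE 0.22, adjusted p = 0.647, edgeR). Whether reads of a neighbour or of HSPD1 contribute to the count of HSPD1P6 was not tested.

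PPIAP22 (ENSG00000198618.5) is a single-exon copy of PPIA, which encodes the prolyl isomerase cyclophilin A, on the plus strand of chromosome 21 from 18857779 to 18858276. It had 39.4, 36.8 and 46.5 CPM in si_NC and 29.3, 28.5 and 26.2 CPM in si_GRB2. All si_GRB2 libraries were lower, with means of 40.9 ± 5.05 CPM and 28.0 ± 1.59 CPM (SD, n = 3 each) and a log2 fold change of −0.55 (SE 0.07, adjusted p = 2.51e-05, edgeR). PPIA fell from 4292 ± 67.3 CPM to 2856 ± 31.2 CPM (SD, n = 3 each), a log2 fold change of −0.59 (SE 0.02, adjusted p = 4.61e-12, edgeR), and was the 1 DEG among the 43 parents. The pseudogene changed by nearly as much, with a difference of 0.04 (SE 0.07), and its reads were 0.843% to 1.08% of those of PPIA in si_NC and 0.912% to 1.02% in si_GRB2. The 2 differ at 2 bases over the 498 bases of the copy, and the part of PPIA reads in the count of PPIAP22 was not tested. Below the read minimum, PPIAP31 had 67, 57 and 80 reads in si_NC and 40, 43 and 48 in si_GRB2 (log2 fold change −0.57, SE 0.18, adjusted p = 0.026, edgeR), PPIAP11 a log2 fold change of −0.48 (SE 0.26) and PPIAP29 of −0.46 (SE 0.27), both with an adjusted p above 0.05.

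Copies of cytoskeleton genes were all lower in si_GRB2, with log2 fold changes from −0.33 to −0.28, and 2 of the 3 passed the test. Of all tested genes, 30.6% passed it. KRT8P12 (ENSG00000229320.3, chromosome 3) derives from KRT8, a keratin of simple epithelia. It had 7.38, 7.53 and 6.67 CPM in si_NC and 5.36, 6.08 and 5.81 CPM in si_GRB2. Every si_GRB2 library was lower, with a log2 fold change of −0.32 (SE 0.11, adjusted p = 0.0319, edgeR), a call that was lost in 7 of 13 other fits, among them those without si_GRB2 replicate 1 or 3 and without si_NC replicate 1 or 2. KRT8P3, a second copy, had 5.42, 6.67 and 6.70 CPM and 5.05, 4.55 and 5.37 CPM, a log2 fold change of −0.33 (SE 0.13, adjusted p = 0.0592, edgeR). KRT8 itself fell from 5969 ± 21.8 CPM to 4492 ± 87.0 CPM (SD, n = 3 each), a log2 fold change of −0.41 (SE 0.02, adjusted p = 1.76e-10, edgeR). Part of an exon of KRT8P12, 125 bases, overlaps an exon of the importin gene KPNA4 on the opposite strand, whose log2 fold change was −0.02 (SE 0.03, adjusted p = 0.632, edgeR).

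TPM3P9 (ENSG00000241015.2, chromosome 19) moved apart from its parent TPM3, a tropomyosin gene. It had 18.6, 18.3 and 18.11 CPM in si_NC and 14.9, 15.04 and 15.3 CPM in si_GRB2, and the groups did not overlap. Its log2 fold change was −0.28 (SE 0.06, adjusted p = 0.0017, edgeR), whereas TPM3 had 460.2 ± 11.3 CPM and 456 ± 9.95 CPM (SD, n = 3 each) and a log2 fold change of −0.01 (SE 0.03, adjusted p = 0.753, edgeR). The difference of −0.27 (SE 0.06) was the largest deficit relative to its error among the pairs. Only 37.2% of the annotated TPM3P9 transcript aligns to TPM3. All 2920 exonic bases of TPM3P9 lie within the span of the zinc finger gene ZNF761 on the same strand, and 45 are shared with its exons. ZNF761 rose in si_GRB2 (log2 fold change 0.39, SE 0.07, adjusted p = 0.000776, edgeR).

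Copies whose symbol names a ribosomal protein gene were the largest group, 45 members with 72.7% of the members' reads. Members without a named parent are not counted here, although some align over their full length to RPS10, RPL27A or RPS26. Of these, the copy like RPS10 rose (described below) and the others did not pass the test. Among the 45, none rose, 5 fell and 40 did not pass the test. Their values were below 0 in 35 and above 0 in 10, with a median log2 fold change of −0.06. Of their 27 parents, 22 fell, none rose and the median was −0.11. Over all tested genes, 15.5% fell and 15.2% rose. All 27 parents had values below 0 in this fit, and 23 did with limma on log2 FPKM. There, 4 (pseudocount 1) or 3 (pseudocount 0.1) fell and 26 of the 45 copies were below 0. Those limma fits called 2633 and 2663 of 15800 genes, both directions together. In those limma fits the median over all tested genes was 0.024 and 0.043, and that of the 27 parents −0.0651 and −0.0657. RPL9P9 (ENSG00000237550.5, chromosome 15), from a gene of the large subunit, had 121, 115 and 113 CPM in si_NC and 107, 105 and 107 CPM in si_GRB2, all lower. Its log2 fold change was −0.13 (SE 0.03, adjusted p = 0.00851, edgeR) and that of RPL9 −0.11 (SE 0.03, adjusted p = 0.00355, edgeR).

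RPL39P5 (ENSG00000214289.2, chromosome 3) had the largest fall among the ribosomal copies that passed the test. It had 11.4, 12.05 and 12.3 CPM in si_NC and 8.90, 10.1 and 9.48 CPM in si_GRB2, without overlap. Its log2 fold change was −0.33 (SE 0.08, adjusted p = 0.00618, edgeR) against −0.11 (SE 0.03, adjusted p = 0.0109, edgeR) for RPL39, a difference of −0.22 (SE 0.09). Of its 449 exonic bases, 187 lie in an exon of AMOTL2 on the same strand. AMOTL2, a gene of the angiomotin family, fell from 81.3 ± 2.14 CPM to 67.0 ± 1.07 CPM (SD, n = 3 each), with a log2 fold change of −0.28 (SE 0.04, adjusted p = 2.49e-05, edgeR), and its part in the count of RPL39P5 was not tested.

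The other falls among ribosomal copies were smaller. RPS28P7 (chromosome 11) had 57.7, 54.7 and 54.8 CPM in si_NC and 52.6, 50.2 and 46.6 CPM in si_GRB2 (log2 fold change −0.16, SE 0.05, adjusted p = 0.0144, edgeR), while RPS28 had a log2 fold change of −0.03 (SE 0.04, adjusted p = 0.585). RPL36AP37 (chromosome 11) had 19.7, 18.4 and 19.4 CPM and 15.9, 17.04 and 16.9 CPM (log2 fold change −0.21, SE 0.06, adjusted p = 0.0154, edgeR), and RPL36A −0.17 (SE 0.02, adjusted p = 6.14e-05). Both copies were lower in every si_GRB2 library, and both are identical to their parents over their annotated length. Each lost its call in 4 of 13 other fits, RPS28P7 with limma at both pseudocounts and without si_GRB2 replicate 3 or si_NC replicate 1, and RPL36AP37 with DESeq2, with limma at both pseudocounts and without si_GRB2 replicate 1. RPL7P9 (chromosome 1) had 24.7, 27.6 and 29.4 CPM and 25.03, 23.3 and 23.4 CPM, so that the groups overlapped, and its log2 fold change of −0.19 (SE 0.06, adjusted p = 0.0326, edgeR) lost its call in 7 of 13 other fits, among them those without replicate 2 or 3 of either group. RPL7 had a log2 fold change of −0.12 (SE 0.02, adjusted p = 9.94e-05).

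Several ribosomal copies with a high FPKM did not pass the test. RPS2P5 (ENSG00000240342.3, chromosome 12) had 454, 461 and 469 CPM in si_NC and 467, 452 and 459 CPM in si_GRB2, a log2 fold change of −0.0049 (SE 0.03, adjusted p = 0.918, edgeR). RPS2 had 2939 ± 86.1 CPM and 2852 ± 48.2 CPM (SD, n = 3 each), a log2 fold change of −0.04 (SE 0.02, adjusted p = 0.178). The log2 fold change was 0.0033 (SE 0.06) for RPSAP47, −0.07 (SE 0.07) for RPL23AP42, 0.04 (SE 0.10) for RPS27P3 and 0.06 (SE 0.14) for RPL41P5, while RPSA (−0.12), RPL23A (−0.09), RPS27 (−0.12) and RPL41 (−0.19) fell with adjusted p-values of at most 0.0336 (edgeR). The 5 copies of RPSA, a gene for a small-subunit protein, ranged from −0.04 to 0.02 on the log2 scale. Those of RPL7 (4 copies) ran from −0.19 to 0.14 and those of RPS2 (4 copies) from −0.03 to 0.37. Copies of one parent share its sequence and are not independent of each other.

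**Figure D3:**
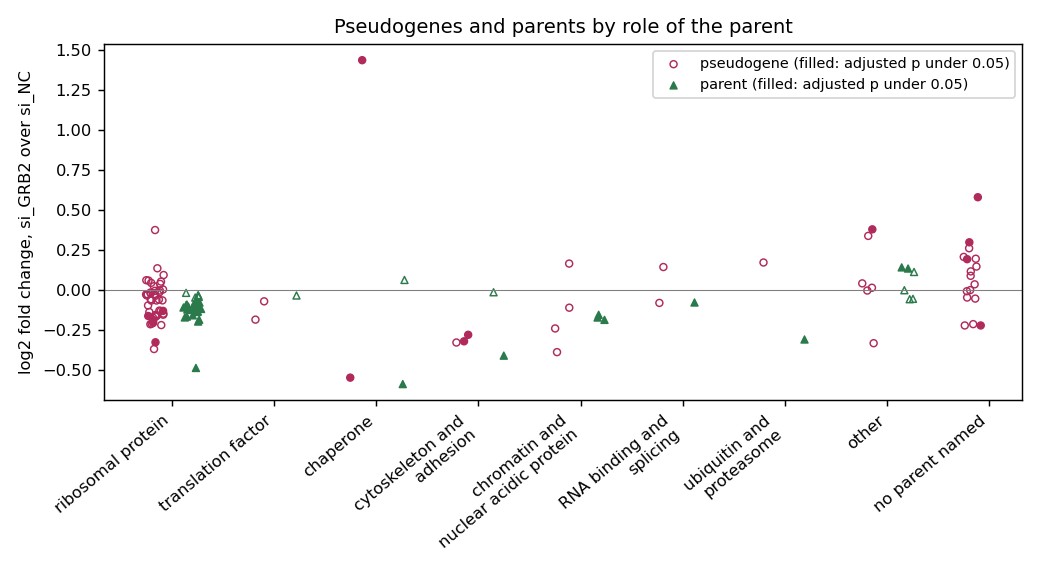
Log2 fold change of si_GRB2 over si_NC for the 82 pseudogenes (circles) and their 43 parents (triangles), by the role of the parent, with filled symbols for an adjusted p under 0.05. The 27 ribosomal parents all lie below 0, while their 45 copies scatter from −0.37 to 0.37, and HSPD1P6 stands alone at 1.44.

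No member passed the test among the copies of genes for translation factors (2), RNA binding and splicing (2), chromatin and nuclear proteins (4) and the ubiquitin system (1). EEF1A1P5, a copy of the translation elongation factor gene EEF1A1, had 76.3, 95.7 and 74.2 CPM in si_NC and 74.6, 72.6 and 87.0 CPM in si_GRB2, overlapping widely (log2 fold change −0.07, SE 0.08, adjusted p = 0.562, edgeR), and EEF1A1 had −0.03 (SE 0.02, adjusted p = 0.213). HNRNPA1P10, from the splicing factor gene HNRNPA1, had a log2 fold change of −0.08 (SE 0.10, adjusted p = 0.607), close to −0.08 (SE 0.03, adjusted p = 0.0392, edgeR) for HNRNPA1, which fell. HMGB1P5, from the chromatin protein gene HMGB1, had 9.06 to 9.59 CPM in si_NC and 7.75 to 9.65 CPM in si_GRB2, a log2 fold change of −0.11 (SE 0.10, adjusted p = 0.442), and HMGB1 fell by 0.15 on the log2 scale (SE 0.03, adjusted p = 0.0006, edgeR). MSL3P1, of the group with other roles, and its parent both missed the threshold, at 0.04 (SE 0.08, adjusted p = 0.743) against −0.06 (SE 0.07, adjusted p = 0.612) for MSL3.

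PDIA3P1 (ENSG00000180867.11, chromosome 1) was the 1 of 6 copies of genes with other roles that rose, and none of the 6 fell. Over all tested genes, 15.2% rose and 15.5% fell. It derives from PDIA3, a disulfide isomerase of the endoplasmic reticulum. It had 4.14, 4.39 and 3.89 CPM in si_NC and 4.77, 5.97 and 5.37 CPM in si_GRB2, all higher. Its log2 fold change was 0.38 (SE 0.13, adjusted p = 0.0374, edgeR), and that of PDIA3 was 0.13 (SE 0.03, adjusted p = 0.000647, edgeR). Of its 3328 exonic bases, 3317 lie within the span of the noncoding gene RP11-337C18.10 on the same strand, and 967 are shared with its exons. RP11-337C18.10 had a log2 fold change of −0.15 (SE 0.04, adjusted p = 0.00346, edgeR) and far more reads, at a mean of 90.7 CPM against 4.75 CPM for PDIA3P1. The call of PDIA3P1 was lost in 8 of 13 other fits, among them every fit that left out a library except si_GRB2 replicate 1.

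Among the 17 members without a named parent, 3 rose and 1 fell, where 15.2% of all tested genes rose and 15.5% fell. RP11-425L10.1 (ENSG00000244313.3, chromosome 11) is 99.6% identical to the ribosomal protein gene RPS10 over its full 498 bases and lies in an intron of AMBRA1 on the same strand. It had 3.99, 3.06 and 3.21 CPM in si_NC and 6.36, 3.42 and 5.65 CPM in si_GRB2. The second si_GRB2 library lay within the range of si_NC, and the others were higher (log2 fold change 0.58, SE 0.19, adjusted p = 0.0321, edgeR). Without si_GRB2 replicate 2 the value was 0.81, and without si_GRB2 replicate 1 it was 0.40 with an adjusted p of 0.186 (edgeR). The call was lost without si_GRB2 replicate 1 or 3 and without si_NC replicate 2 or 3. AMBRA1 had a log2 fold change of −0.03 (SE 0.05, adjusted p = 0.706). DUXAP9 (chromosome 14) aligned to the homeobox gene DUXA over 43.97% of its transcript. It had 6.38, 5.57 and 6.27 CPM and 6.99, 7.43 and 8.02 CPM (log2 fold change 0.30, SE 0.11, adjusted p = 0.0429, edgeR). CENPBD1P1 (chromosome 19) had 13.2, 12.9 and 13.7 CPM and 15.4, 14.3 and 15.96 CPM (log2 fold change 0.19, SE 0.07, adjusted p = 0.0463, edgeR). Both were higher in every si_GRB2 library, and both calls were lost in 10 of 13 other fits. With a library left out, DUXAP9 kept its call only without si_GRB2 replicate 1 and CENPBD1P1 only without si_GRB2 replicate 2. SMPD4BP (chromosome 2), a copy of the sphingomyelinase gene SMPD4 over part of its length, fell from 16.3, 15.7 and 16.97 CPM to 12.9, 14.3 and 14.8 CPM (log2 fold change −0.22, SE 0.07, adjusted p = 0.0239, edgeR), while SMPD4 had a log2 fold change of −0.07 (SE 0.04, adjusted p = 0.243). The call of SMPD4BP was lost in 5 of 13 other fits, with DESeq2, with limma at both pseudocounts, and without si_GRB2 replicate 1 or si_NC replicate 3.

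Pseudogenes and parents were then compared pair by pair. The parents had many more reads and a median SE of 0.03, and 31 of 43 changed, 29 lower and 2 higher (PDIA3 and PLEKHA8), where 30.6% of all tested genes changed, 15.5% lower and 15.2% higher. With limma on log2 FPKM, 7 (pseudocount 1) or 6 (pseudocount 0.1) fell and 1 rose, where 2633 or 2663 of all 15800 genes were called in either direction. Of the 10 members with a parent that passed the test, 7 had a parent that also passed, each in the same direction, and for HSPD1P6, TPM3P9 and RPS28P7 the parent did not pass. Since 31 of all 43 parents passed, nothing is read from the 7 of 10. Pseudogene and parent had values of the same sign in 49 of the 65 pairs. In 42 pairs the parent changed and the pseudogene did not pass. Over the 65 pairs the log2 fold changes of pseudogene and parent had a Pearson correlation of 0.44 and a Spearman correlation of 0.28, and 0.46 and 0.25 without HSPD1P6. These are descriptions, since pairs of one parent repeat its value and both genes of a pair come from the same libraries. The log2 fold change of the pseudogene was above that of its parent in 40 pairs, with a median difference of 0.04, and 10 pairs differed by more than 2 SE. This SE takes the 2 genes of a pair as independent, and the same count over all tested pairs was not made, so the 10 are a description.

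**Figure D4:**
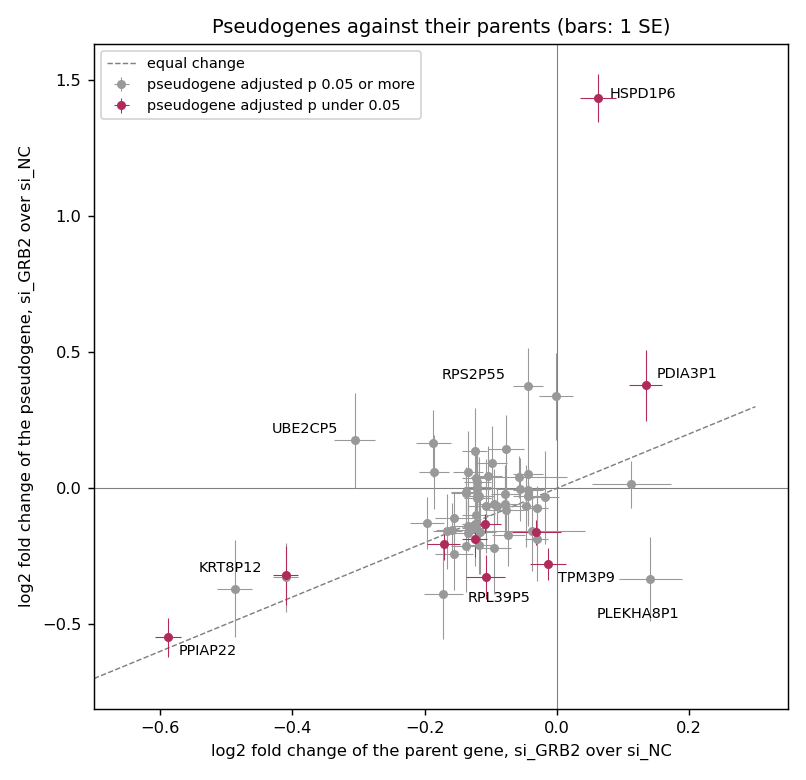
Log2 fold change of each pseudogene (y axis) against that of its parent (x axis), both si_GRB2 over si_NC, for 65 pairs with bars of 1 SE and a dashed line of equal change. PPIAP22 and KRT8P12 lie near the line at −0.55 against −0.59 and −0.32 against −0.41, and HSPD1P6 lies far above it at 1.44 against 0.06.

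The read ratio of pseudogene to parent did not overlap between the groups in 11 of 65 pairs (16.9%), 9 higher and 2 lower in si_GRB2. Of all 208 tested processed pseudogenes with a parent, which include these 65, 11.5% did not overlap. Each of the 11 pairs has an exact permutation p of 0.1, the smallest possible. Leaving out 1 library gave 13 to 21 such pairs, since smaller groups overlap less often. Besides HSPD1P6, the higher pairs with the largest differences relative to their error were RPS2P55, NPM1P27, UBE2CP5 and RPSAP47, of which NPM1P27 and RPSAP47 overlapped. RPS2P55 (chromosome X) had 0.114%, 0.11% and 0.129% of the reads of RPS2 in si_NC and 0.14%, 0.175% and 0.158% in si_GRB2, all higher, a difference in log2 fold change of 0.42 (SE 0.14). Its own log2 fold change of 0.37 (SE 0.14) missed the threshold (adjusted p = 0.0548, edgeR). UBE2CP5 (chromosome 19) had 1.76%, 1.87% and 1.30% of the reads of UBE2C, a ubiquitin-conjugating enzyme gene of mitosis, in si_NC and 2.71%, 2.12% and 2.02% in si_GRB2. The groups did not overlap, and UBE2C fell (log2 fold change −0.31, SE 0.03, adjusted p = 1.89e-06, edgeR), while UBE2CP5 had 0.18 (SE 0.17, adjusted p = 0.503).

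NPM1P27, in an intron of FAM172A on the same strand, had 0.466%, 0.469% and 0.526% of the reads of the nucleolar protein gene NPM1 in si_NC and 0.665%, 0.511% and 0.69% in si_GRB2. The middle si_GRB2 library lay within the si_NC range, and the difference in log2 fold change was 0.35 (SE 0.13). NPM1 fell (log2 fold change −0.19, SE 0.03, adjusted p = 5.45e-05, edgeR), and NPM1P27 had 0.16 (SE 0.12, adjusted p = 0.358). RPSAP47 differed from RPSA by 0.12 (SE 0.06).

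In the other direction, after TPM3P9, came PLEKHA8P1, RPL39P5, RPS28P7 and HMGN2P5. PLEKHA8P1, from the lipid transfer protein gene PLEKHA8, had 13.4%, 15.1% and 14.5% of the parent's reads in si_NC and 13.98%, 9.65% and 7.73% in si_GRB2. The first si_GRB2 library matched si_NC and the others were lower, with a difference of −0.47 (SE 0.16), although PLEKHA8P1 itself did not pass the test (log2 fold change −0.33, SE 0.15, adjusted p = 0.12, edgeR). RPS28P7 had 31.2%, 28.98% and 28.0% of the reads of RPS28 in si_NC and 26.9%, 26.9% and 26.6% in si_GRB2, without overlap and with a difference of −0.13 (SE 0.06). HMGN2P5, from the nucleosome-binding protein gene HMGN2, had 3.35, 2.83 and 3.46 CPM in si_NC and 2.15, 2.91 and 2.29 CPM in si_GRB2, and a difference of −0.22 (SE 0.17), less than 2 SE.

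**Figure D5:**
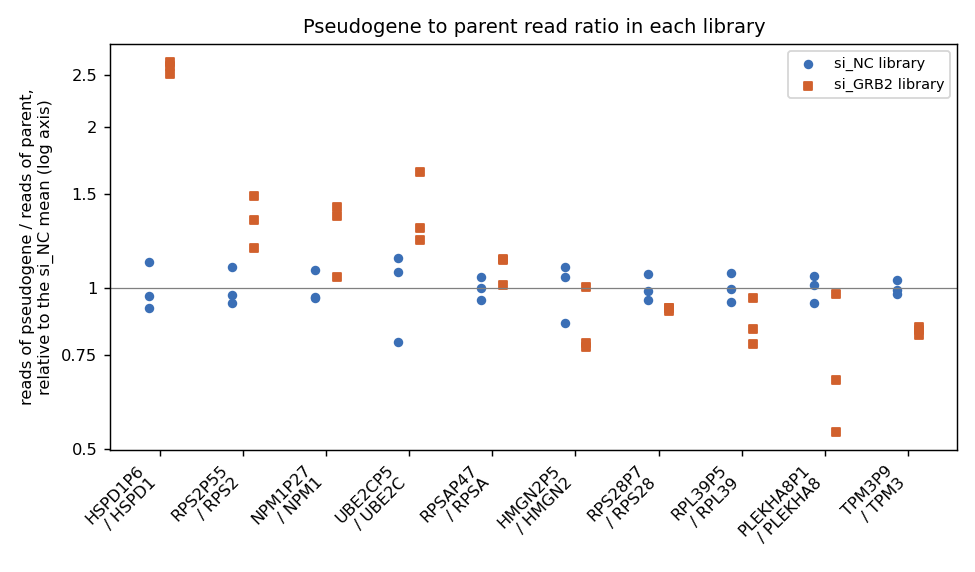
Reads of 10 pseudogenes divided by the reads of the parent in each si_NC library (circles) and si_GRB2 library (squares), relative to the si_NC mean of the pair (log axis). The pairs are the 5 with the largest positive and the 5 with the largest negative difference in log2 fold change relative to its SE, and HSPD1P6 stands apart from the rest.

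Differences between pseudogene and parent were set against likeness, the identity over the aligned stretch, as a description. Among the 28 pairs at least 99% identical, 1 differed from its parent by more than 2 SE, with differences from −0.22 to 0.24. Among the 26 pairs from 97% to 99%, 3 did, with differences from −0.47 to 0.42. Among the 10 pairs under 97%, 6 did, with differences from −0.27 to 1.37. No test was made of these counts.

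Position in the genome bears on the counts as well. Of the 81 members placed on GRCh38, 26 overlapped no other annotated gene, 9 lay in an intron of a coding gene on the same strand, and 13 shared exonic bases with another gene on the same strand. The sources used here do not say whether the counting used strand, so overlaps on either strand leave a count uncertain. Among the 26 without an overlap 4 changed, HSPD1P6 upward and PPIAP22, RPL7P9 and SMPD4BP downward, against 17.1% of all members and 30.6% of all tested genes, so nothing is read from this count.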

How the data were processed

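RNA-seq of 6 SK-BR-3 libraries, 3 si_NC and 3 si_GRB2, was used, grouped by the library descriptions. The authors trimmed reads with FASTX-Toolkit, aligned them to GRCh38 with HISAT2, kept uniquely mapped reads and deposited raw read counts and FPKM for each gene. The counting tool and annotation are not given in the sources used here, nor is the strand setting. Counted reads were 24810378 to 28532480 per library, which limits the precision of members with few reads, as their SEs show.

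From the counts, edgeR 4.0.16 (R 4.3.3, TMM, filterByExpr, quasi-likelihood test, no covariate) tested 15801 genes with Benjamini-Hochberg adjustment over all of them. Every adjusted p comes from this test unless another tool is named. The SE was taken as the log2 fold change over the root of the F statistic. Ratios to the parent used log2 of counts with 0.5 added and an exact permutation test. Differences of log2 fold change carry the root of the summed squared SEs and no p. FPKM served for levels. The fitting script was tested on simulated counts.

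A parent is the gene named in the symbol before its P number, from the file for 57 members and from the GENCODE 44 symbol for 8. Roles follow lists of parent symbols. Member transcripts of GENCODE 44 were aligned to coding transcripts with blastn 2.17.0 (word size 14). A closest coding gene is named only where at least 80% of the member aligned, except where partial likeness is stated. The members, lists and rules were chosen with earlier results of these data known. Named are GRB2, DEGs, up to 10 rises and 10 falls, the 10 highest by FPKM, the 5 pairs most apart in each direction, the member with most reads in each role, those nearest the read minimum, and their parents. Neighbours, overlapping genes and other copies of a parent were added after their values were seen.

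DESeq2 1.42.0 was an alternative, as were edgeR with DESeq2 size factors, other count filters (every gene with a read, or 10 reads in each library), a block on replicate number, limma 3.58.1 on log2(FPKM + 1) or log2(FPKM + 0.1), other read minimums for members, other ratios, and each library left out. Python 3.11.15, pandas 2.3.3, scipy 1.17.1 and matplotlib 3.10.9 made tables and figures. Some items are not reported here.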

Additional observations from a re-analysis of the deposited data

How the results depend on the processing

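GRB2 kept its direction and call under all alternatives, with log2 fold changes from −2.18 to −1.91, and from −2.18 to −2.13 with each library left out. The number of members with an adjusted p under 0.05 was 14. DESeq2 gave 7, all among the 14, and limma gave 5 with a pseudocount of 1 (5 shared) and 5 with 0.1 (4 shared, with RPS2P55 in addition). The cause was not tested. Leaving out 1 library gave 7 to 13. Over all tested genes the calls were 4838 as reported, 3884 with DESeq2 and 2633 or 2663 with limma. With a library left out they were 3784 to 4424. The other count filters gave 11 and 12, and read minimums of 20, 100 or a mean of 50 gave 18 of 142, 13 of 58 and 16 of 93 members. The number of DEGs was 1 under all settings with all 6 libraries and 1 to 2 with a library left out, where RP11-425L10.1 joined without si_GRB2 replicate 2 and PPIAP22 without si_NC replicate 2. The number of pairs whose read ratio did not overlap stayed 11 with 0 or 1 added and with FPKM ratios, and was 13 to 21 with a library left out, which fewer samples allow by construction. The difference in the share of reads, 2.84e-05 percentage points, stayed within the spread between replicates, from −0.00102 to 0.00115 with a library left out. In 728 refits of 56 named genes, 616 stayed on the same side of the call limit, 105 lost a call, 7 gained one, and no called value changed sign. Among the 616 were 27 refits in which a value without a call changed sign.

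Same-numbered libraries had deviations from the group means that correlated at 0.23, −0.09 and 0.08, so the numbers were not taken as pairs, and not every library correlated best with its own number. With the replicate block, 16 members were called, the 14 together with KRT8P3 and RPS2P55. The share difference is 2.84e-05 with the block by construction, since the groups are balanced over the numbers.

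Depth limits the members more than their parents. The median SE was 0.11 on the log2 scale for members and 0.03 for parents, and a p above the threshold does not show that such a member was unchanged. Reads that could not be placed uniquely, and the strand setting of the counting, limit every near-identical or overlapping copy.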

Other observations

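Among the 195 tested processed pseudogenes below the read minimum, 10 had an adjusted p under 0.05 (edgeR), 6 higher and 4 lower in si_GRB2, and none was a DEG. This is a smaller share than the 30.6% of all tested genes. They were named after their values were seen. RPS10P3, a copy of RPS10, had 13, 19 and 15 reads in si_NC and 81, 13 and 49 in si_GRB2 (log2 fold change 1.68, SE 0.48, adjusted p = 0.0135, edgeR). Replicates 1 and 3 of si_GRB2 were high and replicate 2 was not, as for RP11-425L10.1, which is also like RPS10. RPS10P7 had 24, 30 and 30 reads and 23, 29 and 31 reads (log2 fold change 0.05, SE 0.24), and RPS10P5 had 8, 8 and 9 and 12, 18 and 14 (log2 fold change 0.87, SE 0.35, adjusted p = 0.0732, edgeR). The count table gives RPS10 itself only 76 to 108 reads per library, and the read-through gene RPS10-NUDT3 17152 to 19851 with a log2 fold change of −0.06 (SE 0.02, adjusted p = 0.0676, edgeR).

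Other calls among these low-read copies were RPL12P4, with 34, 34 and 42 reads in si_NC and 48, 56 and 58 in si_GRB2 (log2 fold change 0.62, SE 0.19, adjusted p = 0.0207, edgeR), and RPLP0P2, with 13, 18 and 15 against 22, 27 and 29 (log2 fold change 0.82, SE 0.28, adjusted p = 0.0348, edgeR). AC079250.1 fell from 78, 90 and 71 to 45, 53 and 52 reads (log2 fold change −0.61, SE 0.18, adjusted p = 0.0159, edgeR).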
